A study of Homo sapiens with 40 samples.

Results

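The 8 genes described here, of glucose breakdown and of the response to low oxygen, were followed through 6 perturbations of NF-kB and STAT3 signalling in lymphoma cells. They are LDHA, SLC2A3, TPI1, PGAM1, PFKP, ENO3, VEGFA and NDRG1. The genes were chosen by name, with earlier results of these data known. Counts of members called, set below beside the share of all genes, are therefore descriptions and no test of the set. A probe was taken as theirs where it carried that single gene symbol, which gave 8 genes of 4604 and 25 probes of 15246. The probes were spread unevenly: PGAM1 had 7, VEGFA 4, SLC2A3 and NDRG1 3 each, and the other genes 2 each.

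Glycolysis turns glucose into pyruvate through a chain of cytosolic enzymes, and lactate dehydrogenase turns pyruvate into lactate. When oxygen is short, the transcription factor HIF-1, a pair of HIF1A and ARNT, binds a short core motif near many genes of this pathway, and MYC binds a related motif near several of the same genes. Proliferating B cells and B cell lymphomas are known for a high flux through this pathway even where oxygen is present.

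RNA came from OCI-Ly3 and OCI-Ly10, established human lymphoma lines (diffuse large B cell lymphoma of the activated B cell type), and was measured on 40 arrays with 2 colours. Treated cells were labelled with Cy5 and control cells of the same line with Cy3, so each value is a ratio of treated over control within a line. OCI-Ly3 cells received IL-10 at 50 ng/ml for 1, 3, 6, 24, 48 or 96 h (10 arrays). OCI-Ly3 and OCI-Ly10 cells that carried a doxycycline-inducible IkB super-repressor, a form of the inhibitor that blocks NF-kB, received doxycycline at 20 ng/ml, the former for 1, 1.5, 2, 3, 4 or 6 h (9 arrays) and the latter for 1.5, 3, 6 or 24 h (4 arrays). Their controls carried the same construct without doxycycline. OCI-Ly10 cells received IL-6 at 50 ng/ml for 0.5, 1, 3, 6 or 24 h (8 arrays), JAK inhibitor I at 5 uM for 3 or 6 h (4 arrays), or a pool of STAT3 siRNAs at 4 uM by electroporation for 8, 24 or 48 h (5 arrays). The siRNA controls were electroporated without siRNA. A non-targeting siRNA, and doxycycline in cells without the construct, were not analysed here, so what the siRNA or the doxycycline does apart from its target cannot be told apart from the effect of the target. The controls of the cytokines and of the inhibitor are labelled only as cells of the same line. The labels do not say whether the construct lines are clones, or whether arrays share control RNA.

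The targeted genes were checked first. STAT3 was lower after its siRNA (mean log2 ratio -1.59 ± 0.17 SE, adjusted p = 6.4e-05, below 0 on 4 of 4 arrays). NFKBIA, an NF-kB target that encodes IkB alpha, was lower with the super-repressor in OCI-Ly3 (-1.61) and in OCI-Ly10 (-1.03), although its probes could also detect the introduced gene. SOCS3, a target of STAT3, was higher with IL-6 (0.77) and IL-10 (0.28). It was not lower with the siRNA (0.19, above 0 on 4 of 4 arrays) or the JAK inhibitor (0.22, above 0 on 3 of 4), and neither value was called. STAT3 itself was lower with the inhibitor (-0.69, adjusted p = 0.0264). Of 8 B cell markers 7 were on the arrays, and each had a value on 40 of 40 arrays. Of 10 markers of other cells 7 were on the arrays, with values on 33 to 40. A ratio within a line shows no level, so these values do not test the cell type. With IL-10, of the 7 B cell markers CD22 (0.20) and CD74 (0.24) were higher and CD79A (-0.34) lower, and of the 7 others CD14 (0.60) and CD3E (0.17) were higher and VIM (-0.23) lower. In the NF-kB block window of OCI-Ly3 the B cell marker BLNK (0.26) was higher and PAX5 (-0.22) lower, and with the JAK inhibitor CD79B (0.68) was higher. No other marker was called in the 6 windows, where CD14, CD2 and CSF1R were not tested with IL-6. Their part in the results below was not tested.

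Every mean below is a log2 ratio of treated over control, averaged with equal weight over the time points of a window and tested against 0 by limma in a fit of all 40 arrays, with p-values adjusted over all genes tested. A gene rose or fell where the adjusted p was under 0.05. The base of the deposited logarithm is not stated and is taken as 2. Replicates are arrays that the labels number 1 and 2 at a time point. Nothing says that they were separate cultures, and the p-values therefore reflect only how far these samples spread, which may be technical. Time points with a single array add no spread of their own. Their standard errors rest on replicate arrays elsewhere in the fit, of other time points, other treatments and in part the other line. Over the members, the 2 arrays of a time point differed by a median of 0.15, and by 0.72 at most, over 112 pairs of values. No dyes were swapped, and any dye bias of a gene is part of its ratio. Array identifiers in the labels fell into 12 runs that the labels do not explain, and replicate arrays always lay in different runs. Values from a fit with the run as a random block therefore stand beside each count of members that this fit changed. That fit also lowered the share of all genes called, to 2.35% for NF-kB block in OCI-Ly3, 0.111% in OCI-Ly10, 0.969% for IL-6, 23.5% for IL-10, 1.10% for the siRNA and 1.72% for the JAK inhibitor.

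**Figure D1:**
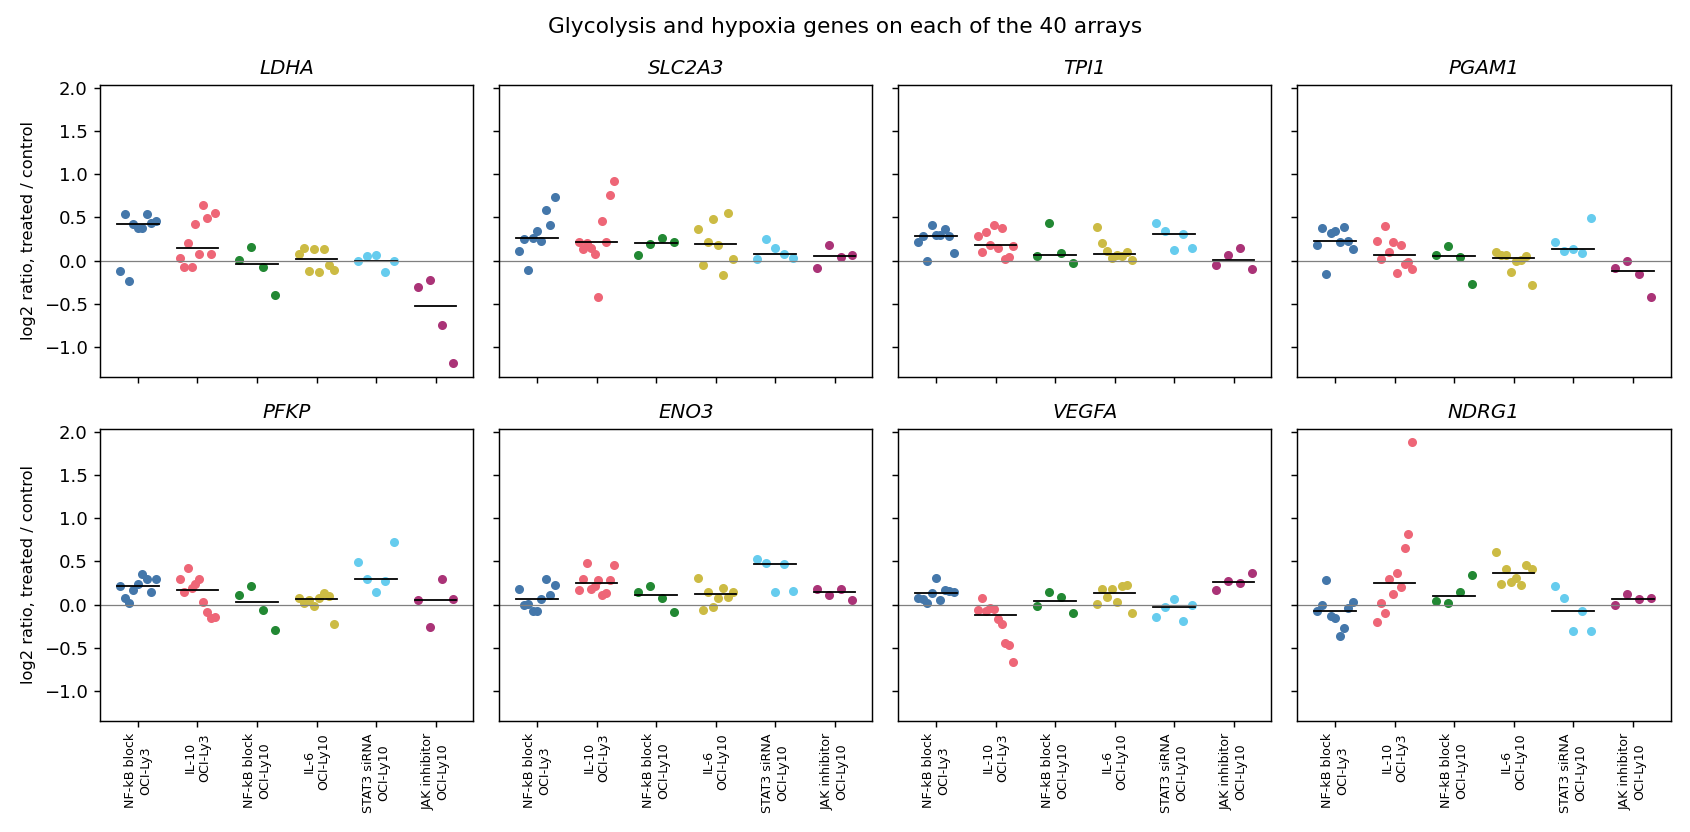
Log2 ratio of treated over control (vertical axis) on each of the 40 arrays for the 8 genes, 1 panel per gene. Points are arrays, ordered by time from left to right within an experiment, and short black lines are medians over the arrays of an experiment; NDRG1 reaches 1.88 with IL-10 and LDHA -1.19 with the JAK inhibitor.

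NF-kB block in OCI-Ly3 moved most of the 8 genes in 1 direction, by small amounts. Over 2 to 6 h, 6 of 8 rose and 0 fell, where 14.0% of all genes tested were called, 9.16% as higher and 4.87% as lower. LDHA rose by 0.35 ± 0.08 (SE, 7 arrays, adjusted p = 0.00723) and SLC2A3 by 0.35 ± 0.09 (adjusted p = 0.0131). TPI1 (0.26 ± 0.06), PGAM1 (0.23 ± 0.07), PFKP (0.22 ± 0.06) and VEGFA (0.16 ± 0.05) also rose. ENO3 was at 0.06 and NDRG1 at -0.10, and neither passed. The median of the 8 genes was 0.223, beside -0.025 over all genes tested. With the run as a block, 0 of the 8 were called while their means moved by 0.02 or less, and over the 6 genes named as rising the adjusted p ran from 0.0688 for LDHA to 0.185 for PGAM1. Leaving out 1 array at a time also lowered the count: 1 member, LDHA, was called when replicate 2 of 2 h was left out, 2 when replicate 2 of 4 h was, 3 for either array of 6 h, 4 for the 3 h array or replicate 1 of 4 h, and 6 for replicate 1 of 2 h. A further comparison, chosen after seeing that some members were above 0 in every experiment, set the window against the mean of the other 5 experiments. LDHA was then higher (0.44 ± 0.09, adjusted p = 0.0049), NDRG1 was lower (-0.30 ± 0.08, adjusted p = 0.0273), and the other members were not called. The other experiments enter this comparison with their own effects. Among these are the fall of LDHA with the JAK inhibitor (-0.62) and the rise of NDRG1 with IL-10 (0.56). The differences are therefore not measures of NF-kB block alone.

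The same block in OCI-Ly10 gave no call. Over 3 to 24 h, 0 of 8 members passed where 0.532% of all genes did (0.221% higher and 0.310% lower), and their means lay between -0.10 (LDHA) and 0.22 (SLC2A3), with adjusted p from 0.917 to 0.998. This window rests on 3 arrays, 1 per time point, and its standard errors and p-values therefore use the spread of other experiments only. The difference between the lines was tested at their shared times of 1.5, 3 and 6 h: 0 of 8 members and 0 of 4384 genes passed in limma, with 1 member, LDHA, and 108 genes at an unadjusted p under 0.05. LDHA stood at 0.45 in OCI-Ly3 and 0.03 in OCI-Ly10, a difference of 0.42 ± 0.15. A difference between the lines was therefore not shown.

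With IL-6 in OCI-Ly10, NDRG1 was called and no other member was. Over 1 to 24 h NDRG1 rose by 0.34 ± 0.07 (adjusted p = 0.00941, above 0 on 7 of 7 arrays), the only call among the 8, where 4.54% of all genes were called (3.48% higher and 1.06% lower). With the run as a block the mean of NDRG1 was 0.35 and the adjusted p 0.0577. Against the mean of the other 5 experiments it was at 0.24 and not called (adjusted p = 0.0954). The remaining members lay between -0.06 (PGAM1) and 0.16 (SLC2A3).

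IL-10 in OCI-Ly3 moved members in both directions. Over 1 to 96 h, 5 of 8 rose and 1 fell, in an experiment where 35.3% of all genes were called, 16.1% as higher and 19.2% as lower. NDRG1 rose by 0.56 ± 0.06 (adjusted p = 1.09e-06), SLC2A3 by 0.37 ± 0.07 (adjusted p = 0.000782), ENO3 by 0.28 ± 0.05 (adjusted p = 0.000262), LDHA by 0.25 ± 0.07 (adjusted p = 0.0066) and TPI1 by 0.19 ± 0.05 (adjusted p = 0.0115). VEGFA fell by 0.27 ± 0.04 (adjusted p = 3.81e-05). PGAM1 (0.06) and PFKP (0.08) did not pass. These 6 calls were also made with the run as a block and without any single array, but the mean of NDRG1 was 0.30 without the 96 h array. Against the mean of the other 5 experiments, LDHA (0.33), NDRG1 (0.50) and VEGFA (-0.38) were called, while SLC2A3 (0.19), ENO3 (0.15) and TPI1 (0.04) were not. Effects of the other experiments are part of these differences.

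STAT3 siRNA, aimed at STAT3, and JAK inhibitor I, aimed at the kinases above it, were each followed in OCI-Ly10. With the siRNA at 24 and 48 h, PFKP rose by 0.36 ± 0.08 (adjusted p = 0.017) and ENO3 by 0.32 ± 0.07 (adjusted p = 0.0256). These are 2 of 8 members where 3.31% of all genes were called (1.27% higher and 2.05% lower). With the run as a block 0 of 8 passed (adjusted p = 0.0557 and 0.0754). With the inhibitor at 3 and 6 h, LDHA fell by 0.62 ± 0.10 (adjusted p = 0.00118) and VEGFA rose by 0.26 ± 0.06 (adjusted p = 0.0195), again 2 of 8, where 3.26% of all genes were called (1.09% higher and 2.17% lower). LDHA also passed in the fit blocked by run (adjusted p = 0.00389) and without any single array. VEGFA did not pass with that block (adjusted p = 0.0669), nor without either array of 3 h or replicate 2 of 6 h (adjusted p = 0.0975 to 0.194). The 2 windows share no time point, and whether the siRNA and the inhibitor differ was not tested.

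**Figure D2:**
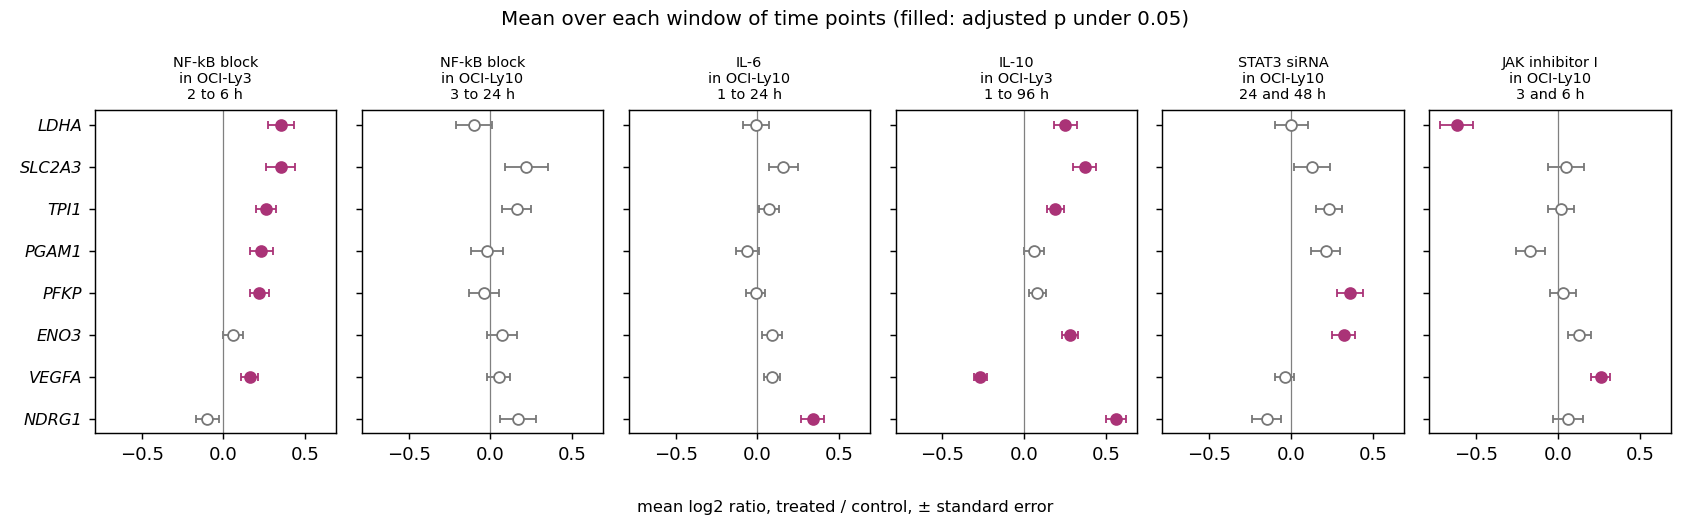
Mean log2 ratio of treated over control (horizontal axis) with its standard error for each of the 8 genes in the 6 windows of time points. Filled points passed at an adjusted p under 0.05 and open points did not; 6 points are filled for NF-kB block in OCI-Ly3, 6 for IL-10, 2 each for the siRNA and the inhibitor, 1 for IL-6 and 0 for NF-kB block in OCI-Ly10.

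SLC2A3 encodes GLUT3, a high-affinity transporter that brings glucose into the cell. In OCI-Ly3 with IL-10 its ratios were 0.22 and 0.13 at 1 h, 0.20 and 0.15 at 3 h, 0.08 and -0.42 at 6 h, 0.46 and 0.22 at 24 h, 0.76 at 48 h and 0.92 at 96 h. The single arrays of 48 and 96 h stood above all earlier arrays, while the 24 h arrays overlapped those of 1 h. The late times (24 to 96 h, mean 0.67) exceeded the early ones (1 to 6 h, mean 0.06) by 0.62 ± 0.15 (adjusted p = 0.00769). Late against early, 4 of 8 members were called, where 13.5% of all genes were (7.96% higher and 5.52% lower). Without the 96 h array the difference for SLC2A3 was 0.49 (adjusted p = 0.0809). Its probes did not behave alike: probe 28200 reached 1.18 and probe 28212 1.27 at 96 h, while probe 16589 stood at 0.32 there and had a late mean of 0.05.

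With NF-kB block in OCI-Ly3, SLC2A3 had ratios of 0.11 at 1 h, 0.25 at 1.5 h, -0.11 and 0.26 at 2 h, 0.34 at 3 h, 0.23 and 0.59 at 4 h, and 0.41 and 0.74 at 6 h. The ratios of 6 h were above those of 3 h and earlier, and the 2 h arrays differed in sign. Probe 16589 had a value on only 2 of the 7 arrays of the window, with a mean of 1.47, while the other probes averaged 0.26 and 0.21 over 7 arrays each. Those 2 arrays were replicate 2 of 4 h (1.19) and of 6 h (1.76), and their high gene means rest on this probe. The other probes read 0.41 and 0.26 at 3 h, and at 6 h 0.56 and 0.26 in replicate 1 and 0.20 and 0.27 in replicate 2. In OCI-Ly10 the gene was above 0 on 4 of 4 arrays of NF-kB block (0.07 to 0.26) and 5 of 5 of the siRNA (0.02 to 0.25), without a call in either.

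PFKP encodes the platelet form of phosphofructokinase, the enzyme at the main control point of glycolysis. Its ratios with STAT3 siRNA were 0.49 at 8 h, 0.30 and 0.14 at 24 h, and 0.27 and 0.72 at 48 h. All 5 arrays were above 0, and the array of replicate 2 at 48 h stood above the others. The call rests on single arrays. Without the second array of 48 h the mean was 0.25 (adjusted p = 0.151), and leaving out the first array of 24 h gave 0.32 (adjusted p = 0.147). With NF-kB block in OCI-Ly3, PFKP was above 0 on 9 of 9 arrays, from 0.02 through a median of 0.21 to 0.35.

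With IL-10, PFKP moved from above to below 0 with time. Its ratios were 0.29 and 0.14 at 1 h, 0.42 and 0.19 at 3 h, 0.24 and 0.29 at 6 h, then 0.03 and -0.09 at 24 h, -0.16 at 48 h and -0.14 at 96 h. Early and late arrays did not overlap. The late mean of -0.11 was below the early mean of 0.26, a difference of -0.37 ± 0.10 (adjusted p = 0.0191). Within each of the 2 array runs that hold both 24 h and earlier arrays, 24 h was below the mean of 1 to 6 h, with a difference of -0.29 in both. The call was lost without the array of 48 h, that of 96 h, or replicate 1 of 1 h or of 3 h (adjusted p = 0.0517 to 0.0687).

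TPI1, PGAM1 and ENO3 serve the middle and lower steps: triosephosphate isomerase, phosphoglycerate mutase and the muscle-type enolase. TPI1 was the member most often above 0, on 37 of 40 arrays, with a lowest ratio of -0.10, a median of 0.15 and a highest of 0.43. SLC2A3 was above 0 on 35, ENO3 on 34 and PFKP on 32 arrays. Of 3198 genes with values on at least 38 arrays, 39 (1.22%) were above 0 on at least 36. Among the members only TPI1 reached that number, and the share of genes at lower numbers was not counted. A constant dye bias would have the same form as such a shift, and it was not tested, because no array had swapped dyes.

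TPI1 with NF-kB block in OCI-Ly3 had ratios of 0.21 at 1 h, 0.29 at 1.5 h, 0.00 and 0.41 at 2 h, 0.30 at 3 h, 0.30 and 0.37 at 4 h, and 0.28 and 0.09 at 6 h. No trend with time was visible, and the early arrays lay within the range of the late ones. PGAM1 in the same cells had ratios of 0.18 and 0.38 at 1 and 1.5 h, -0.15 and 0.32 at 2 h, 0.34 at 3 h, 0.22 and 0.39 at 4 h, and 0.23 and 0.13 at 6 h. Apart from replicate 1 of 2 h, every array was above 0. Its 7 probes averaged 0.10 to 0.35 over the window, all above 0. Probes of PGAM1, TPI1 and LDHA may also detect near-identical copies of these genes, which was not tested.

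ENO3 was above 0 with IL-10 at every time. Its 10 ratios ran from 0.11 through a median of 0.25 to 0.48, and its late (0.29) and early (0.27) means differed by 0.02 ± 0.10. In the siRNA experiment ENO3 had ratios of 0.53 at 8 h, 0.48 and 0.14 at 24 h, and 0.47 and 0.16 at 48 h. The arrays labelled replicate 1 and the 8 h array were high and both arrays of replicate 2 were low, without overlap. Leaving out the first array of 24 h gave 0.23 (adjusted p = 0.307), and leaving out that of 48 h gave 0.24 (adjusted p = 0.149). The replicates lay in different runs, which averaged 0.48 and 0.15.

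LDHA encodes the lactate dehydrogenase subunit that favours the step from pyruvate to lactate. It was lower on each of the 4 arrays of JAK inhibitor I: -0.31 and -0.22 at 3 h, and -0.75 and -1.19 at 6 h. The 6 h arrays were below the 3 h arrays, and all 4 were below the 8 arrays of IL-6 and the 5 of the siRNA in the same line, which ran from -0.13 to 0.15 and from -0.13 to 0.07. One array of NF-kB block in OCI-Ly10, at 24 h, was at -0.40 and overlapped them. At the matched times of 3 and 6 h LDHA was at 0.02 with IL-6, a difference of 0.63 ± 0.14 from the inhibitor (adjusted p = 0.0173). It was the only member called in that comparison, where 2.17% of all genes were called (1.57% higher and 0.600% lower). Leaving out 1 array at a time gave 0 calls or 1, and 5 of the 8 arrays were needed for it (adjusted p = 0.056 to 0.0889 without them). Probe 31561 carried the inhibitor result on all 4 arrays, and the other probe, 28595, had a value on 1 array only (-0.37).

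MYC, which binds near LDHA in many cells, was also lower with the inhibitor (-0.70 ± 0.16, adjusted p = 0.0213, 0 of 4 arrays above 0), while HIF1A (0.09) and ARNT (0.01) were not called. With NF-kB block in OCI-Ly3, where LDHA rose, MYC was at -0.09, HIF1A at -0.05 and ARNT at -0.12, none of them called. With IL-10, HIF1A rose by 0.29 (adjusted p = 0.000222), ARNT fell by 0.37 (adjusted p = 0.00141) and MYC fell by 0.44 (adjusted p = 0.00413). LDHA fell with MYC in 1 experiment and rose where MYC fell in another, and a link between LDHA and these regulators was not tested.

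In OCI-Ly3 with NF-kB block LDHA had ratios of -0.12 at 1 h, 0.54 at 1.5 h, -0.24 and 0.42 at 2 h, 0.38 at 3 h, 0.38 and 0.54 at 4 h, and 0.44 and 0.46 at 6 h. From 3 h on the 5 arrays lay between 0.38 and 0.54, above every IL-6 and siRNA array, all of which are of OCI-Ly10. Arrays of IL-10 in OCI-Ly3 overlapped this range. The ratios with NF-kB block are averages of unlike probes: over 2 to 6 h probe 28595 averaged 0.61 on 5 arrays and probe 31561 0.21 on 7. At 6 h in replicate 1 these probes read 0.95 and -0.08. With IL-10 LDHA had ratios of 0.03 and -0.07 at 1 h, 0.20 and -0.08 at 3 h, 0.42 and 0.08 at 6 h, 0.64 and 0.49 at 24 h, 0.08 at 48 h and 0.55 at 96 h. The array of 48 h fell back into the range of the early ones. Late minus early was 0.30 ± 0.13 (adjusted p = 0.151), and without the 48 h array 0.46 (adjusted p = 0.0448). Probe 28595 went from an early mean of -0.06 to a late one of 0.54, and probe 31561 from 0.26 to 0.34. Within each run, 24 h exceeded the mean of 1 to 6 h, by 0.42 and by 0.52.

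Promoter sequences from RefSeq (GRCh38.p14) were matched for 5 of the 8 members, with 11 annotated start sites: LDHA, TPI1, PGAM1, PFKP and ENO3. The letters searched, on both strands, were ACGTG and GCGTG, the cores of the HIF-1 motif, and CACGTG, the E-box of MYC, which contains ACGTG. The 250 bases before the start are shown for 4 members that rose together with NF-kB block in OCI-Ly3, 1 start site each (where a gene has several, a site with a match was picked), 5′ to 3′, with these letters or their reverse complement in capitals. LDHA lies at chr11:18394313-18394562, TPI1 at chr12:6867855-6868104, PFKP at chr10:3068939-3069188 and PGAM1 at chr10:97427568-97427817, all on the plus strand.
LDHA: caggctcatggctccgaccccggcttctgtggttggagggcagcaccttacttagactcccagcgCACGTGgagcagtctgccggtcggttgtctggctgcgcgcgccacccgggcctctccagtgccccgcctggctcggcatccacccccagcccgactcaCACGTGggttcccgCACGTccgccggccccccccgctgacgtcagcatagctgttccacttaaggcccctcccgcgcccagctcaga
TPI1: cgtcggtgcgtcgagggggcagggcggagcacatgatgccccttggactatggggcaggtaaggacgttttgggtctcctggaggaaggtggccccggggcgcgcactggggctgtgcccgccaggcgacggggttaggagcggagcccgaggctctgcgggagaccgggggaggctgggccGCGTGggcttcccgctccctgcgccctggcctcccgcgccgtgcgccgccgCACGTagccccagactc
PFKP: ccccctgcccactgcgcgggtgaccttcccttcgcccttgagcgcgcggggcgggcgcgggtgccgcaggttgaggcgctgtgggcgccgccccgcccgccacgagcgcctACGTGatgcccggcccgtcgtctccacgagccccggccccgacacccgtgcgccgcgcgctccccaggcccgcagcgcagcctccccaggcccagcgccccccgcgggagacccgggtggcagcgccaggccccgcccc
PGAM1: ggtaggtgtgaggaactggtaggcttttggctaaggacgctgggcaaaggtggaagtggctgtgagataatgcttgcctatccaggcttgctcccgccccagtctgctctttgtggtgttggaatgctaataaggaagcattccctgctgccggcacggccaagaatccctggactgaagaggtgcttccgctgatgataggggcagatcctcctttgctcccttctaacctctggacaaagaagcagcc

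The LDHA window holds CACGTG at 2 places, starting at -185 and -87 from the start site, and a further ACGTG on the reverse strand at -73. CACGTG is present in 6.34% of the 35116 RefSeq windows of the same length, ACGTG in 18.5% and GCGTG in 32.2%. The TPI1 window holds 1 GCGTG (at -68) and 1 ACGTG on the reverse strand (at -17), the PFKP window 1 ACGTG (at -139) and the PGAM1 window, its only one, none of the 3. Of the start sites not shown, the other one of LDHA holds 1 GCGTG, the fourth of PFKP holds 3, and the other one of TPI1 and the first and second of PFKP hold none. For ENO3, which was not called with NF-kB block in OCI-Ly3, the first start site holds 2 GCGTG and the second none of the 3. Of the 11 windows, 6 hold ACGTG or GCGTG, beside 43.2% of all windows. A match of letters is not a measured binding site.

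VEGFA encodes the vascular endothelial growth factor, a secreted signal for new blood vessels and a classical HIF-1 target. With IL-10 its gene mean went from -0.06 and 0.07 at 1 h through -0.08 and -0.04 at 3 h and -0.05 and -0.17 at 6 h to -0.23 and -0.44 at 24 h, -0.47 at 48 h and -0.66 at 96 h. Late and early arrays did not overlap, and the late mean (-0.49) minus the early one (-0.06) was -0.43 ± 0.08 (adjusted p = 0.00106). Within the 2 runs that hold both, 24 h minus 1 to 6 h was -0.17 and -0.39.

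The 4 probes of VEGFA split in this experiment. Probe 27334 fell to -0.64 and -1.06 at 24 h, -1.29 at 48 h and -1.79 at 96 h, and probe 27236 to -0.63, -0.60, -1.16 and -1.35 at the same arrays. Probe 16707 went the other way, to 0.36 at 48 h and 0.52 at 96 h, and probe 29354 stood at 0.19 and -0.01 there. The gene mean therefore averages 2 probes with late means of -1.19 and -0.93 and 2 with late means of 0.31 and 0.01. Which transcripts or genes each probe detects was not tested.

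**Figure D3:**
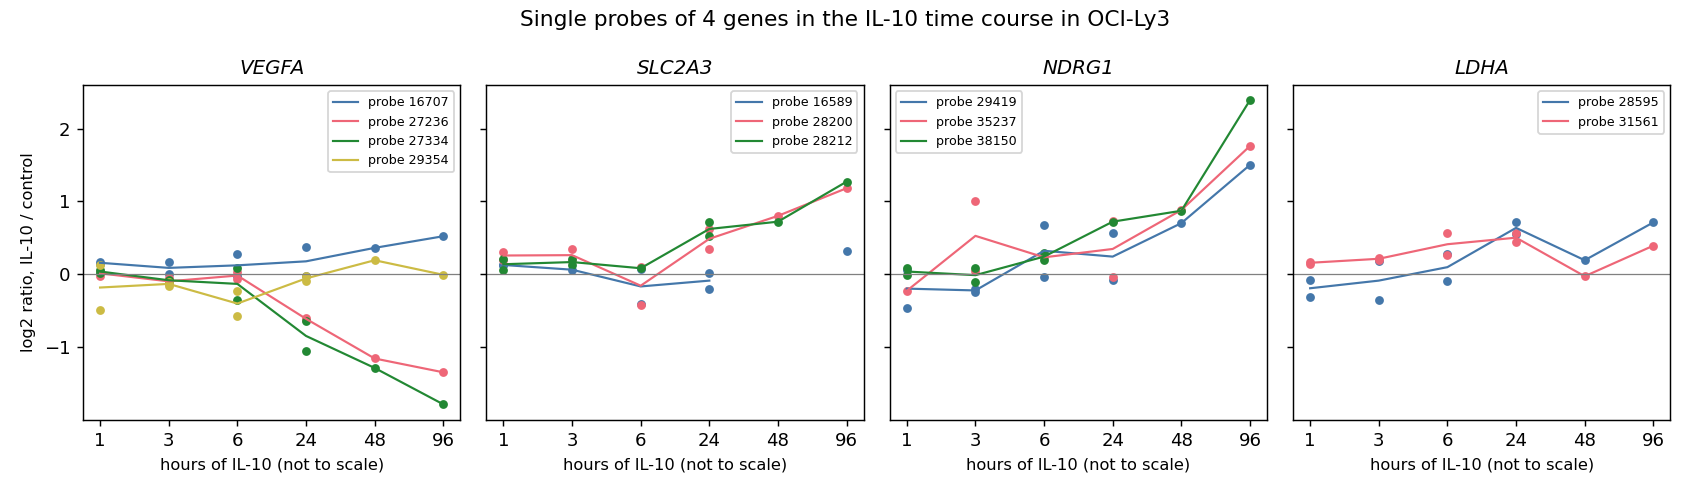
Log2 ratio of IL-10 over control (vertical axis) for each probe of VEGFA, SLC2A3, NDRG1 and LDHA against hours of IL-10 in OCI-Ly3, evenly spaced and not to scale. Points are arrays and lines join the means of time points; 2 VEGFA probes reach -1.35 and -1.79 at 96 h while another reaches 0.52, and the 3 NDRG1 probes reach 1.50 to 2.39.

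In the other experiments the ratios of VEGFA were smaller. With the JAK inhibitor it had ratios of 0.17 and 0.27 at 3 h and 0.25 and 0.36 at 6 h, above 0 on 4 of 4 arrays. Probe 27334 averaged 0.57 there and the others 0.13 to 0.18, and with the median over probes in place of the mean the gene was at 0.20 and not called (adjusted p = 0.12). In OCI-Ly3 under NF-kB block VEGFA was above 0 on 9 of 9 arrays, from 0.02 to 0.31. The highest, at 3 h, includes probe 29354 at 0.70. Over 2 to 6 h that probe was above 0 on 1 of 7 arrays (mean 0.01). Without the 3 h array the mean of VEGFA was 0.11. With the median over probes it was 0.16 and not called in limma (adjusted p = 0.0515).

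NDRG1 encodes a stress-response protein whose messenger is strongly induced by low oxygen in many cells. With IL-10 it had ratios of -0.20 and 0.02 at 1 h, -0.10 and 0.30 at 3 h, 0.12 and 0.37 at 6 h, 0.20 and 0.65 at 24 h, 0.82 at 48 h and 1.88 at 96 h. The 96 h array was the highest value of any member on any array. Late minus early was 0.96 ± 0.13 (adjusted p = 2.3e-05, means 1.04 and 0.08), and without the 96 h array 0.54 (adjusted p = 0.021). Each of the 3 probes had a late mean (0.67, 0.83 and 1.33) above its early one (-0.03, 0.26 and 0.09). Within the runs that hold both, 24 h exceeded 1 to 6 h by 0.26 and 0.42. The arrays of 48 and 96 h form a run of their own in the array identifiers, so that run and time cannot be told apart there. The spread of the probes of the 96 h array (median absolute deviation 0.28) was above that of the 24 h arrays (0.172 and 0.237) and below that of replicate 2 at 6 h (0.293).

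With IL-6, NDRG1 was higher from the first time on: 0.61 at 0.5 h, 0.24 and 0.41 at 1 h, 0.26 and 0.31 at 3 h, 0.23 and 0.46 at 6 h and 0.41 at 24 h. All 8 arrays were above 0 and no rise with time was seen. At 0.5 h and in replicate 1 of 6 h only 1 of its 3 probes had a value. Over 1 to 24 h probe 38150 was above 0 on 7 of 7 arrays (mean 0.33) and probe 35237 on 5 of 5 (0.42). Probe 29419 had a value on 3 arrays (mean 0.24) and read -0.08 in replicate 1 of 1 h. The arrays of replicate 2 averaged 0.39 and the others of the window 0.29. With NF-kB block in OCI-Ly3 it was below 0 on 7 of 9 arrays, from -0.36 through a median of -0.08 to 0.28, the only member with most arrays below 0 in that experiment. IL-10 minus NF-kB block in OCI-Ly3, tested at 1, 3 and 6 h, called 0 of 8 members, where 3.53% of all genes were called (2.21% higher and 1.31% lower). VEGFA had the smallest unadjusted p there (0.00862), with -0.06 against 0.18.

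**Figure D4:**
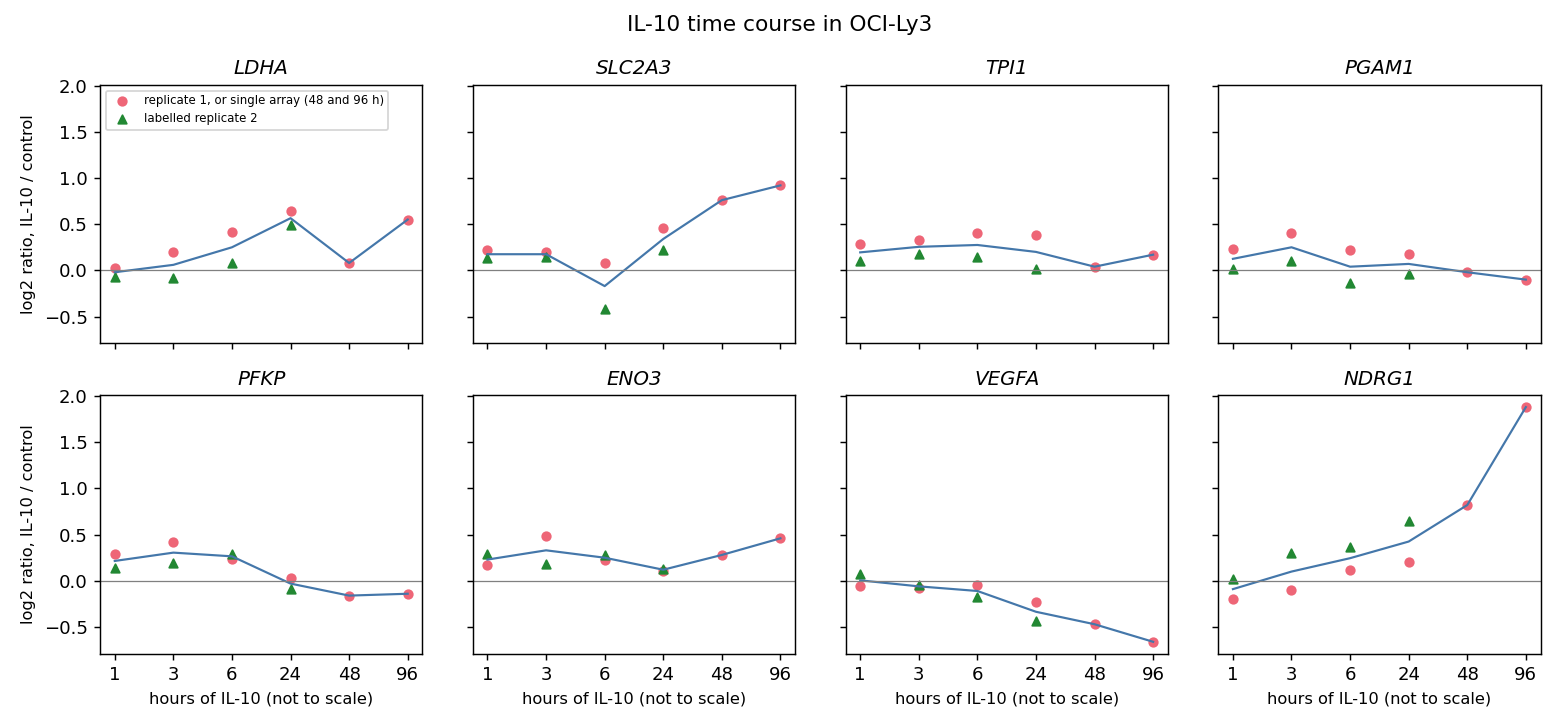
Log2 ratio of IL-10 over control (vertical axis) against hours of IL-10 in OCI-Ly3, evenly spaced and not to scale, for the 8 genes. Circles are replicate 1 or the single arrays of 48 and 96 h, triangles are replicate 2 and lines join the means of time points; SLC2A3 and NDRG1 end at 0.92 and 1.88, VEGFA at -0.66 and PFKP at -0.14.

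Across the 26 combinations of experiment and time the members fell into no single pattern. As a description over group means, which share arrays, runs and controls of the same lines, TPI1 and PGAM1 correlated at r = 0.745, PGAM1 and PFKP at 0.701, TPI1 and PFKP at 0.681, and SLC2A3 and NDRG1 at 0.601. VEGFA and NDRG1 correlated negatively (r = -0.74), as did PFKP and NDRG1 (-0.558). The lowest means of VEGFA were those of IL-10 at 24, 48 and 96 h (-0.34, -0.47 and -0.66), where NDRG1 was at 0.42, 0.82 and 1.88. With IL-6 at 1, 3 and 6 h both genes were above 0. The correlation without the late IL-10 groups was not tested. Among 3998 genes, those most like LDHA were SRP14 (r = 0.876), APEX1 (0.835) and HSP90AA1 (0.827). PGAM1 was nearest to EIF3B and TUBB (both 0.858) and NHP2 (0.851), and NHP2 was also near PFKP (0.841), behind TUBG1 (0.873) and CHAF1A (0.852). For NDRG1 the nearest were METTL14 (0.922), SERPINB1 (0.921) and CIITA (0.902), for VEGFA GARS1 (0.895), NEIL3 (0.893) and CCR2 (0.855, over 25 groups), and for SLC2A3 RAB31 (0.854), SH3BP5 (0.844) and HLA-DPA1 (0.842). TPI1 was nearest to SLC25A5 (0.837), ADAR (0.813) and HDGF (0.805), and ENO3 to BCAT2 (0.772), SPG7 (0.754) and DAZAP1 (0.751).

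The rest of the pathway was read from a list of 100 genes of glucose transport, glycolysis, lactate and pyruvate, its control, the pentose phosphate branch, hypoxia targets and their regulators, of which 64 were on the arrays, 56 without the 8 members. With NF-kB block in OCI-Ly3, 4 of 55 tested rose and 0 fell (7.27%, beside 14.0% of all genes), and the median of the 55 was 0.059. They were the chemokine receptor CXCR4 (0.42), the HIF-1 inhibitor HIF1AN (0.32), INSIG2 (0.23), a brake on sterol synthesis, and the pentose phosphate enzyme RPIA (0.21). In the run block fit, added for this list after seeing the data, CXCR4 was the only call (adjusted p = 0.012). None of the 14 other glycolytic enzymes was called, although their median was 0.101. CXCR4 also rose in OCI-Ly10 (0.44 ± 0.09, adjusted p = 0.0398), the only call of 55 there (1.82%, beside 0.532% of all genes), and was not called in the run block fit (adjusted p = 0.372).

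With IL-6, 2 of 48 rose and 1 fell: the fructose transporter SLC2A5 (0.59), PFKFB3 (0.27), whose product activates phosphofructokinase, and the collagen hydroxylase P4HA1 (-0.28). These are 6.25%, beside 4.54% of all genes, and in the run block fit SLC2A5 was the only call (adjusted p = 0.00227). With IL-10, 11 of 56 rose and 9 fell, with a median of -0.025. The share called, 35.7%, lay near the 35.3% of all genes, and in the run block fit it was 12 of 56 (21.4%, beside 23.5%). PFKFB3 (0.74 ± 0.04, adjusted p = 1.01e-10) and SLC2A5 (0.53 ± 0.07, adjusted p = 7.49e-06) were above 0 on 10 of 10 arrays, as was the heme oxygenase HMOX1 (0.69), and the transferrin receptor TFRC rose by 0.34 (adjusted p = 0.0549 in that fit). Those that fell most were MYC (-0.44), P4HA1 (-0.39), ARNT (-0.37), the pentose phosphate enzyme RPE and the pyruvate dehydrogenase kinase PDK1 (both -0.31, PDK1 not called there). Late against early with IL-10, 8 of 56 were higher and 1 lower (16.1%, beside 13.5% of all genes; 7 and 1 in the run block fit). The late minus early difference was 1.02 for BHLHE40, 0.80 for INSIG2, 0.70 for CXCR4 and 0.60 for HMOX1, and -0.72 for the hexokinase HK2.

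With the JAK inhibitor, MYC and BHLHE40 (-0.31) fell and 0 of 56 rose (3.57%, beside 3.26% of all genes). With the run as a block MYC was called (adjusted p = 0.0387) and BHLHE40 was not (adjusted p = 0.115). With the siRNA, 0 of 55 were called in limma, beside 3.31% of all genes, and the median was -0.028. An unadjusted p under 0.05 in limma was found for 11 of the 55, beside 903 of all 4346 genes tested. In IL-6 minus JAK inhibitor I, SLC2A5 was the only call of 50 (0.79 ± 0.15, adjusted p = 0.00431, 0.63 against -0.16). IL-10 minus NF-kB block in OCI-Ly3 gave PFKFB3 as higher (0.49) and CXCR4 and BHLHE40 (both -0.66) and INSIG2 (-0.38) as lower, 4 of 55 (7.27%, beside 3.53% of all genes), of which INSIG2 was not called in the run block fit (adjusted p = 0.0527).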

How the data were processed

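The authors deposited 1 value per spot and array, read here as a log2 ratio of Cy5 (treated) over Cy3 (control), with the dyes taken per the labels. No label or header names the base of the logarithm, the background correction or the normalization (not stated in the sources used here). Array medians lay between -0.031 and 0.011, and 12.6% of values were blank. Of 15246 probes, 10169 had 1 gene symbol, 4 several and 5073 none. Each array was centred on its median, probes with 1 symbol were averaged per gene (4604 genes), and limma 3.58.1 (R 4.3.3) fitted 1 mean per experiment and time (26 groups) over 40 arrays. Blank values were left out, not imputed.

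A gene was tested where every time point and at least 75% of the arrays of a contrast had a value. Adjusted p-values are Benjamini-Hochberg over all genes tested, with a threshold of 0.05. The fit was also run on simulated data with independent noise on each array. Arrays of a run correlated at 0.269 in the run block fit, and the simulation does not cover this. Array runs were broken where identifiers jumped by over 50, with 8862 to 14947 probes measured per array. The 40 arrays' number limits the precision. Members and lists were chosen with earlier results of these data known. Named genes are the members, the regulators HIF1A, ARNT and MYC, up to 4 called genes of the wider list per direction, and the 3 genes most correlated with each member. Replicate numbers were checked as pairs by the correlation of deviations from group means: 0.185 to 0.229 for IL-6 and 0.393 to 0.59 for IL-10, where they pair the arrays, and -0.368 to 0.336 for NF-kB block in OCI-Ly3, where they do not. Alternatives were other normalization, spread, probe summary, filter, blocks and left-out arrays.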

Additional observations from a re-analysis of the deposited data

Results flagged for a closer look

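For 4 of the 8 genes the effect of IL-10 in OCI-Ly3 differed between late (24 to 96 h) and early (1 to 6 h) times by limma's test of that difference, where 13.5% of all genes were called. NDRG1 was higher late, by 0.96 ± 0.13 (adjusted p = 2.3e-05; 0.54 and 0.021 without the 96 h array), and above 0 on 4 of 4 late arrays. SLC2A3 was higher late, by 0.62 ± 0.15 (adjusted p = 0.00769; 0.0809 without the 96 h array), also on 4 of 4. VEGFA was lower late, with a difference of -0.43 ± 0.08 (adjusted p = 0.00106), below 0 on 4 of 4 late arrays and carried by 2 of its 4 probes. PFKP was lower late, with a difference of -0.37 ± 0.10 (adjusted p = 0.0191), and below 0 on 3 of 4 late arrays. Its call was lost without any 1 of 4 arrays (adjusted p = 0.0517 to 0.0687): 48 h, 96 h, or replicate 1 of 1 h or 3 h. The arrays of 48 and 96 h form a run of their own, and run and time cannot be told apart there.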

How the results depend on the processing

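Over the 8 genes and 10 comparisons there were 1160 values under alternatives. Of these, 1031 kept direction and call, 73 lost the call and 2 gained it. Another 54 were not called and changed sign, and 0 called ones changed sign. A result not called in the main fit counts as kept while it keeps direction and stays uncalled. The 1031 therefore do not show how stable the calls were. For NF-kB block in OCI-Ly3, LDHA kept its call in 15 alternatives and lost it in 1. PGAM1 kept its call there in 6 and lost it in 10. Counts of members called that changed were these. For NF-kB block in OCI-Ly3 (6 members), the experiment's own arrays alone gave 2, the median over probes 4, the run block 0 and the comparison with the other 5 experiments 2, and leaving out 1 array gave 1 to 6. For IL-6 (1), the run block and that comparison gave 0, and left-out arrays 1. For IL-10 (6), own arrays gave 5 and that comparison 3, and left-out arrays 6. For the siRNA (2), own arrays, the run block and that comparison gave 0, and left-out arrays 0 to 2. For the inhibitor (2), own arrays gave 0, and the median over probes and the run block 1, with left-out arrays 1 to 2. Late minus early (4) gave 2 with equal spread and 2 with own arrays, and 2 to 4 with left-out arrays. IL-6 minus the inhibitor gave 0 to 1 with left-out arrays, and the other 3 comparisons gave 0 in each. The comparison with the other 5 experiments and the fit without both 2 h arrays (6 called) were chosen after seeing the data. The cause of these changes was not tested.

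Counts of all genes called moved by over 1.5 times in many fits. NF-kB block in OCI-Ly3 (616) gave 368 with own arrays, 1105 with the replicate block, 103 with the run block and 269 to 957 with left-out arrays. OCI-Ly10 (24, of which 10 higher) gave 238 with equal spread (124 higher), 5 with the run block, 10 against the others and 1 to 17 with left-out arrays. IL-6 (150, of which 115 higher) gave 455 with equal spread (281 higher), 71 with own arrays, 314 with the replicate block, 32 with the run block, 237 against the others and 93 to 147 with left-out arrays. IL-10 (1548) gave 1031, 765 against the others and 1161 to 1569. The siRNA (144) gave 83 with equal spread, 0 with own arrays, 417 with the replicate block, 48 with the run block, 95 against the others and 21 to 106. The inhibitor (146) gave 232, 12, 260 and 77 in the first 4 of these fits and 44 to 160. Late minus early (591) gave 295 with equal spread, 227 with own arrays and 306 to 600. The lines' difference (0) gave 2 with equal spread, IL-6 minus the inhibitor (87) gave 206, 162 with the replicate block, 48 with the run block and 41 to 79, and IL-10 minus NF-kB block (153) gave 97 with own arrays and 86 to 194. The replicate block left each count of members called as it was (6, 1, 6, 2, 2, 4, 0, 1 and 0). Own arrays alone and the replicate block could not be fitted for NF-kB block in OCI-Ly10. Ratios give no signal over background, so dim spots cannot be set apart here.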
